A study of Mus musculus with 12 samples.

Results

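The miR-467 and miR-669 families are 2 groups of closely related mouse microRNAs, most of them cut from hairpins inside an intron of the gene Sfmbt2. They were taken here as every row of the deposited count table whose name begins with mmu-miR-467 or mmu-miR-669 followed by a letter, which gave 37 of 1549 rows: 13 of miR-467 and 24 of miR-669. Among them 2 pairs of rows held the same count in all 12 libraries, miR-467a-5p with miR-467b-5p and miR-467a-3p with miR-467d-3p, so the 37 rows carry 35 distinct profiles, and the shared profiles are written below as miR-467a/b-5p and miR-467a/d-3p. The table came from small RNA sequencing of 5 groups of sorted wild-type mouse cells. A129-2 (n = 2), A129-6 (n = 3) and A129-17 (n = 2) are androgenetic haploid embryonic stem cell (ESC) lines, whose single genome comes from sperm. R1 (n = 2) is a diploid ESC line, and all 4 ESC lines were grown with LIF and the inhibitors PD0325901 and CHIR99021. RS (n = 3) are round spermatids, the haploid germ cells that follow meiosis, sorted by Hoechst staining from testes of 129Sv males. R1 is the only diploid line, and it is not known here whether replicate libraries stem from independent cultures or animals. The p-values therefore weigh a group difference only against the spread of libraries within groups. Each haploid line was its own group, so differences between the 3 lines do not enter that spread, except where counts were summed per line.

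A microRNA gene is transcribed as a long precursor, from which a hairpin is released and cut into a duplex of a 5p and a 3p strand. One strand of each duplex usually enters an Argonaute protein and pairs with messenger RNAs through its seed, bases 2 to 8 from the 5′ end. Sfmbt2 encodes a Polycomb-group protein and is expressed mainly from the paternal allele in early mouse embryos and placenta, and the microRNA cluster in its intron is found in rodents and is needed for normal growth of the placenta. miR-669a has been linked to the repression of skeletal muscle genes in heart progenitors.

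In the GENCODE M21 annotation of GRCm38, Sfmbt2 spans chr2:10370510-10595253 on the plus strand. Its single intron from 10461473 to 10523944, the 10th of a protein-coding transcript, holds 43 hairpins of the 2 families, 14 of miR-467 and 29 of miR-669, between 10467229 and 10518279. Another 28 hairpins of the miR-466 and miR-297 families lie in the same gene. All 71 are on the strand of Sfmbt2, and 0 overlap an exon. The build the authors used is not given in the sources used here. These positions were therefore joined to the table by name only. By name, 10 hairpins can give miR-467a and 12 can give miR-669a, whereas miR-467c, miR-467d, miR-467e and miR-669c have 1 hairpin each. A further 4 rows belong to hairpins outside Sfmbt2, and these are the 4 members whose mature sequence is in the RefSeq table for GRCm38.p6. They are shown, with the seed in capitals, because they share the family names but not the locus.
miR-467f: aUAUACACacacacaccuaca
miR-467g: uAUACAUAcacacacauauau
miR-467h: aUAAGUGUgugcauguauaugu
miR-669n: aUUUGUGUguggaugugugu
The 4 seeds are all different. miR-467f lies on chromosome 11 at 69635419 to 69635439 on the minus strand, in an intron of Fxr2, and miR-467g on chromosome 5 at 34732872 to 34732892 on the minus strand, in an intron of Grk4. miR-669n lies on chromosome 3 at 115979905 to 115979924 on the plus strand, in an intron of Slc30a7, and in all 3 cases the host gene is read from the opposite strand. miR-467h, on chromosome 9 at 115381898 to 115381919 on the plus strand, overlapped no other annotated gene. These 4 rows were close to silent: over all 12 libraries miR-467f and miR-467g had 1 count each, miR-467h had 13 and miR-669n had 7.

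The ESC libraries held 3709786 to 9176080 counts and the spermatid libraries 155232 to 243714, so that 1 count was worth 0.109 to 0.27 CPM (counts scaled to a common library size) in ESC and 4.1 to 6.44 CPM in spermatids. A set of 5 ESC marker miRNAs of the miR-290 and miR-302 clusters made up 6.02% to 9.7% of the ESC counts and at most 0.131% of the spermatid counts, and 5 spermatid markers, miR-34c-5p among them, made up 26.1% to 35.1% of the spermatid counts and at most 0.166% of the ESC counts. miR-302a-3p was at 0 in all spermatid libraries, miR-34b-5p in A129-6 and A129-17, and miR-449a-5p in A129-2. Mesenchymal markers summed to 0.59% to 2.67% in the haploid lines, 1.49% to 1.66% in R1 and 2.31% to 6.7% in spermatids, and blood markers to at most 0.0208% in ESC and 0.0612% to 0.201% in spermatids. The part of these other cells in the results was not tested, and in bulk samples fewer cells of a type and less RNA per cell cannot be told apart. There were 2 ESC libraries that stood apart in their scaling, A129-6 replicate 3 and A129-17 replicate 1, whose factors in edgeR's trimmed mean of M-values (TMM) scaling were 0.701 and 0.758 against 0.919 to 1.38 in the other 7. Counts below were tested with edgeR's quasi-likelihood test over the 757 rows that passed the filter in the 9 ESC libraries, with Benjamini-Hochberg adjusted p-values and a threshold of 0.05, and levels are TMM-normalised CPM unless another unit is named.

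The 2 families were a small part of each library and were carried by a few members. Over the 35 profiles they made up 0.842% ± 0.0458 of the counts in the 2 libraries of A129-2 (mean and SD), 0.824% ± 0.235 in the 3 of A129-6 and 0.545% ± 0.0785 in the 2 of A129-17. The shares were 0.422% ± 0.00785 in R1 (n = 2) and 0.661% ± 0.258 in spermatids (n = 3). The mean share of the miR-467 family ran from 0.268% in A129-17 to 0.394% in A129-6, with R1 between them at 0.287% and spermatids above them at 0.487%. The place of R1 depended on the unit. As TMM-normalised CPM the miR-467 sum was 2826 to 3983 in the haploid libraries and 2644 and 2666 in R1, without overlap. The miR-669 share was 0.277% to 0.485% in the 3 lines, 0.135% in R1 and 0.174% in spermatids, and none of the 7 haploid libraries overlapped the R1 libraries. The 4 most abundant profiles in each of the 5 groups were the 5p strands of miR-467a/b, miR-669c, miR-467c and miR-669a, in an order that varied with the group. At the other end, 9 rows did not pass the filter on low counts in the ESC fit, namely miR-467b-3p, miR-467f, miR-467g, miR-467h, miR-669d-3p, miR-669g, miR-669l-3p, miR-669m-3p and miR-669n, with 1 to 34 counts over all libraries.

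Among the 5p strands of miR-467, those of miR-467d and miR-467c were higher in the haploid lines, that of miR-467e was lower, and the most abundant, miR-467a/b-5p, did not pass the test. miR-467d-5p stood at 269 and 376 (A129-2), 449.4, 437 and 381 (A129-6), 373 and 259.8 (A129-17), and 20.7 and 21.7 (R1). Every haploid library was well above the level of R1. The log2 difference, the mean of the 3 lines minus R1, was 4.05 (SE 0.320, adjusted p = 3.02e-08, edgeR), a 16.5-fold higher level and the largest difference of a tested member with a call. miR-467c-5p was measured at 704 and 813 (A129-2), 1120, 1148 and 1158 (A129-6), 1063 and 1070 (A129-17), and 178 and 173 (R1). Its haploid and R1 libraries were again far apart, and its log2 difference was 2.47 (SE 0.245, adjusted p = 3.43e-07, edgeR). miR-467e-5p lay at 56.4 and 74.5 (A129-2), 66.5, 65.8 and 44.1 (A129-6), 54.8 and 27.6 (A129-17), and 104 and 95.5 (R1). The haploid libraries were all below R1, and miR-467e-5p fell by 0.88 on the log2 scale (SE 0.297, adjusted p = 0.0161, edgeR). That call rested on both R1 libraries: without R1 replicate 1 the adjusted p was 0.123 and without R1 replicate 2 it was 0.0768 (edgeR). It was also lost with upper-quartile scaling (-0.57, adjusted p = 0.0841), with a filter on a mean count of 50 (-0.54, adjusted p = 0.0931), with counts summed per line (-0.74, adjusted p = 0.0555) and in the fit that scaled the spermatids too (-0.02, adjusted p = 0.994, all edgeR).

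For miR-467a/b-5p, the 9 ESC libraries gave 1657 and 1881 (A129-2), 1860, 2044 and 1535 (A129-6), 1625 and 1207 (A129-17), and 2221 and 2262 (R1). All 7 haploid libraries were below both R1 libraries, by a narrow margin, and the log2 difference was -0.44 (SE 0.217, adjusted p = 0.0823, edgeR). The sign of this difference changed with the libraries in the fit, to 0.42 when the spermatid libraries were included. The shift was not particular to this profile, as the median log2 difference of all tested rows moved from 0.33 to 0.94 in that fit. The TMM factors also differed, with R1 at 1.055 and 1.107 in the ESC fit and 1.313 and 1.31 in the fit of all libraries. The cause was not tested. With DESeq2 on the ESC libraries it was -0.68 with an adjusted p of 0.00615. It also passed the threshold with RLE scaling (-0.68, adjusted p = 0.00791, edgeR), with the 2 ESC libraries of lowest TMM factor left out (-0.52, adjusted p = 0.0189, edgeR), without A129-2 replicate 2 (-0.54, adjusted p = 0.0382, edgeR) and without A129-17 replicate 1 (-0.55, adjusted p = 0.0486, edgeR). In no setting was miR-467a/b-5p called higher in the haploid lines.

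Of the 5p strands of miR-669, 8 of 11 were called higher in the haploid lines and 0 lower, where 35.3% of all 757 tested rows were called higher and 35.3% lower. miR-669c-5p, the most abundant of them, stood at 1722 and 2409 (A129-2), 1701, 1669 and 1933 (A129-6), 2279 and 1259 (A129-17), and 286 and 264 (R1). No haploid library came near the R1 level, and the log2 difference was 2.76 (SE 0.304, adjusted p = 1.04e-06, edgeR), or 6.77-fold. miR-669a-5p, which by name 12 hairpins can give, stood at 799 and 1233 (A129-2), 1001, 1267 and 916 (A129-6), 771 and 558 (A129-17), and 505 and 472 (R1). Its groups did not overlap, but the lowest haploid library, A129-17 replicate 2, was close to R1, and the log2 difference was 0.87 (SE 0.259, adjusted p = 0.00747, edgeR). miR-669o-5p was measured at 194 and 396 (A129-2), 357, 362 and 365 (A129-6), 322 and 182 (A129-17), and 147 and 122 (R1), with a log2 difference of 1.16 (SE 0.314, adjusted p = 0.00424, edgeR). The rarer miR-669h-5p, at 9.17 and 16.4 (A129-2), 24.0, 17.6 and 24.7 (A129-6), 26.1 and 9.91 (A129-17), and 2.98 and 2.66 (R1), had a log2 difference of 2.60 (SE 0.491, adjusted p = 2.36e-04, edgeR). miR-669f-5p (1.79), miR-669m-5p (1.41), miR-669l-5p (1.31) and miR-669k-5p (2.39, adjusted p = 0.0365, edgeR, from 117 counts in all) were the other calls, as log2 differences. The remaining 3, miR-669b-5p (0.40), miR-669e-5p (0.35) and miR-669d-5p (0.33), had adjusted p-values of 0.341, 0.377 and 0.402 (edgeR), and their haploid and R1 libraries overlapped. In the fit that scaled the spermatids too, these 3 passed the threshold, at 1.26, 1.21 and 1.19 (adjusted p = 0.0232, 0.0118 and 0.018, edgeR).

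Of the 3p strands, 2 of the 4 tested rows of miR-467, which are 1 shared profile, and 3 of the 8 of miR-669 rose, and 0 fell. The miR-669 share, 37.5%, is near the 35.3% of all tested rows that were called higher. The profile shared by miR-467a-3p and miR-467d-3p stood at 155 and 179.9 (A129-2), 480.4, 265 and 671 (A129-6), 528 and 260.2 (A129-17), and 117 and 109 (R1). All haploid libraries were above R1, A129-2 by the smallest margin, and the log2 difference was 1.48 (SE 0.360, adjusted p = 0.00197, edgeR). miR-669a-3p stood at 296 and 332 (A129-2), 456, 376 and 403 (A129-6), 371 and 189 (A129-17), and 96.1 and 81.7 (R1), with no overlap, and its log2 difference was 1.90 (SE 0.300, adjusted p = 4.38e-05, edgeR). miR-669p-3p, which by name 2 hairpins can give, was rare, at 8.39 and 11.7 (A129-2), 16.6, 15.4 and 9.79 (A129-6), 17.8 and 10.9 (A129-17), and 1.99 and 2.07 (R1), and its log2 difference was 2.63 (SE 0.466, adjusted p = 1.36e-04, edgeR). miR-669c-3p had 237 counts in the haploid libraries and 6 in R1, a log2 difference of 3.64 (SE 0.778, adjusted p = 7.00e-04, edgeR). With so few R1 counts this size moved with the R1 library used, to 5.25 without R1 replicate 1 and to 2.79 without R1 replicate 2. miR-669h-3p had 37 counts in haploid libraries and 0 in R1, a TMM-normalised level at least 5.01-fold higher in the pooled haploid libraries when R1 is set to the floor of 3 counts over the group, but A129-17 also had 0. miR-669f-3p had a log2 difference of 0.86 and an adjusted p of 0.0587 (edgeR), and passed the threshold with upper-quartile scaling (1.18, adjusted p = 0.0139), with a filter on a mean count of 50 (1.19, adjusted p = 0.0135), with counts summed per line (1.01, adjusted p = 0.029), with the spermatids in the fit (1.72, adjusted p = 0.00164), without A129-6 replicate 3 (adjusted p = 0.0396, edgeR) or without A129-17 replicate 2 (adjusted p = 0.0176, edgeR). The other tested 3p rows, miR-467c-3p, miR-467e-3p, miR-669a-3-3p, miR-669b-3p and miR-669e-3p, had fewer counts over all libraries than miR-669c-3p and were not called.

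**Figure D1:**
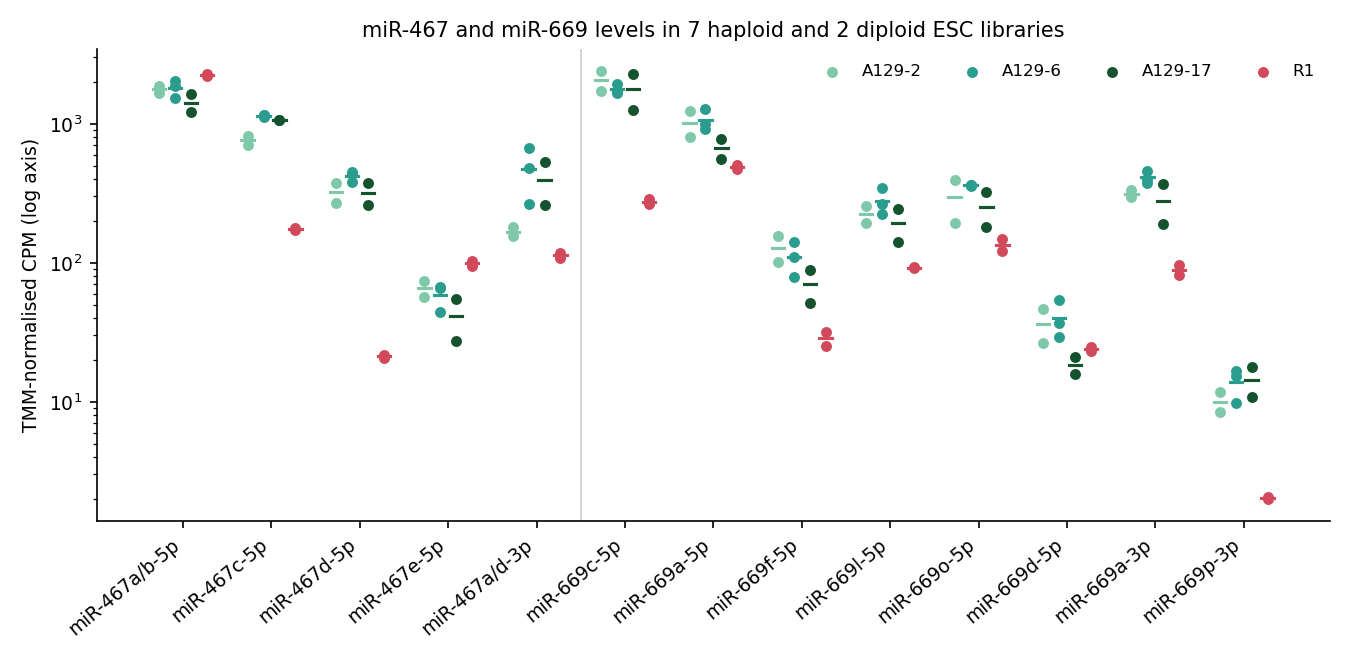
TMM-normalised CPM (log axis) of 13 members in each ESC library, coloured by line, with a short bar at the group mean. The R1 points lie below the haploid points for miR-467c-5p, miR-467d-5p, miR-669c-5p and most others, just above them for miR-467a/b-5p and miR-467e-5p, and among them for miR-669d-5p.

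Counted together, 28 of the 37 rows (26 profiles) were tested in the ESC fit. Of these 15 rows (14 profiles) were called higher in the haploid lines than in R1, 1 was called lower, and 12 did not pass. Among all 757 tested rows, 35.3% were called higher and 35.3% lower. The median log2 difference was 1.23 over the 28 members and 0.33 over all rows. By family, 11 of 19 tested rows of miR-669 rose and 0 fell, and 4 of 9 tested rows of miR-467 rose and 1 fell. All 7 haploid libraries were above both R1 libraries for 15 of the 28 rows and below both for 3, against 34.7% and 35.1% of all tested rows. The rows below were miR-467e-5p and the shared profile of miR-467a-5p and miR-467b-5p. Rows that share reads cannot be taken as separate evidence, since the treatment of reads that match several family members is not given in the sources used here.

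**Figure D2:**
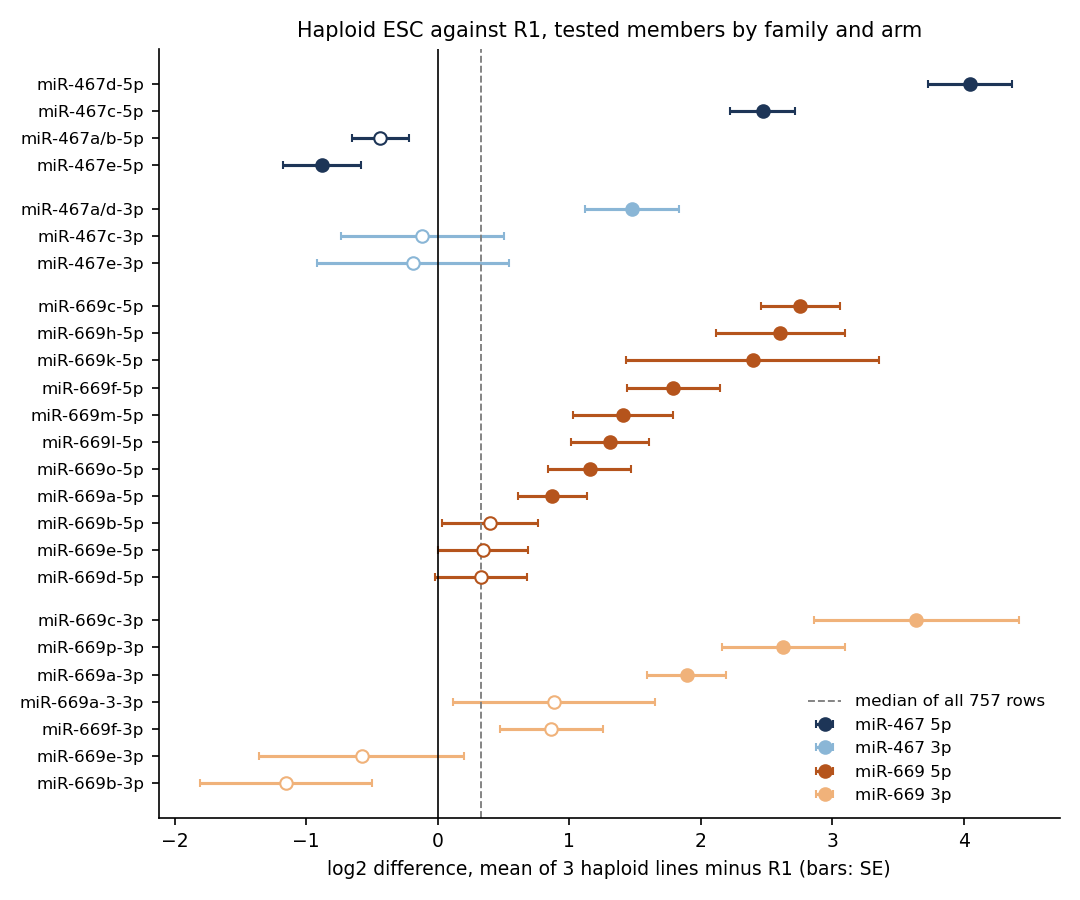
Log2 difference (mean of the 3 haploid lines minus R1) with its standard error for 25 tested profiles, grouped by family and arm, filled where the adjusted p passed 0.05. miR-467d-5p is farthest to the right at 4.05, miR-467e-5p is the only filled point left of 0, and the dashed line is the median of all tested rows, 0.33; miR-669h-3p, with 0 counts in R1, is not drawn.

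Of the 14 profiles called higher, 10 kept the call in every alternative that was run. The exceptions were miR-669a-5p, miR-669k-5p, miR-669m-5p and miR-669o-5p. Without R1 replicate 2 the adjusted p was 0.108 for miR-669a-5p, 0.0736 for miR-669m-5p and 0.0765 for miR-669o-5p, and without R1 replicate 1 it was 0.0751 for miR-669a-5p (edgeR). miR-669k-5p lost its call without either R1 library (adjusted p = 0.186 without replicate 1 and 0.147 without replicate 2, edgeR), without A129-2 replicate 2 (log2 difference 1.78, adjusted p = 0.131), without A129-17 replicate 1 (1.79, adjusted p = 0.108), without the 2 ESC libraries of lowest TMM factor (1.62, adjusted p = 0.116) and with RLE scaling (2.15, adjusted p = 0.059). With total-count scaling miR-669a-5p had an adjusted p of 0.0731 (edgeR). The scaling moved all rows together, with the median log2 difference of all 757 rows at 0.08 under the RLE scaling and 0.64 under upper-quartile scaling. Over the same settings the median of the 28 members was 0.98 and 1.55. When the spermatids were included in the fit, 342 of all rows were called higher and 176 lower, against 267 and 267 in the ESC fit.

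The 3 haploid lines were also each set against R1, with the R1 libraries shared by all 3 comparisons. In A129-2, 13 of 28 member rows were called higher and 0 lower, where 31.0% and 28.8% of all tested rows were. In A129-6 the counts were 18 higher and 0 lower, beside 35.0% and 32.1% of all rows. In A129-17 they were 13 higher and 3 lower, beside 34.6% and 31.6%, and the 3 lower rows were miR-467a-5p, miR-467b-5p and miR-467e-5p. The counts of higher rows in A129-2 and in A129-17 were both 8 without R1 replicate 2. The 3 lower rows in A129-17 were 1 without A129-6 replicate 1, A129-6 replicate 2 or R1 replicate 2, and 0 without A129-17 replicate 2 or R1 replicate 1. In A129-6, 1 row was called lower without A129-2 replicate 2 or without either A129-17 library. miR-467d-5p differed from R1 by 3.93, 4.32 and 3.90 on the log2 scale in A129-2, A129-6 and A129-17, and miR-669c-5p by 2.91, 2.68 and 2.69.

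Between the 3 haploid lines, edgeR's F-test called 0 of the 28 member rows, where it called 3.83% of all tested rows. An unadjusted p under 0.05 was found for 6 of the 28 member rows, beside 23.0% of all tested rows, so the members were near the background. DESeq2 called 3 of the 21 member rows to which it gave an adjusted p, beside 15.9% of all such rows. The lowest adjusted p was that of miR-467a/d-3p, 0.0866 (edgeR), with group means of 167 ± 17.6 (SD, n = 2) in A129-2, 472 ± 203 (n = 3) in A129-6 and 394 ± 189 (n = 2) in A129-17. Its 2 rows were called without A129-17 replicate 1 (adjusted p = 0.0279, edgeR), without A129-17 replicate 2 (0.0247), without the 2 ESC libraries of lowest TMM factor (0.0368), with no filter (0.00701) and with DESeq2 (0.0246). miR-669e-5p stood at 38.5 and 71.3 (A129-2), 78.8, 95.3 and 44.5 (A129-6), 26.2 and 24.7 (A129-17), and 35.9 and 37.6 (R1). It was highest in A129-6 and lowest in A129-17, whose libraries were below R1, with an adjusted p of 0.0938 between lines (edgeR), and it was called without A129-6 replicate 3 (adjusted p = 0.027), without the 2 ESC libraries of lowest TMM factor (0.0364), with no filter (0.0268) and with DESeq2 (0.0143). miR-669d-5p had the same order of lines, with means of 36.5, 40.2 and 18.3 in A129-2, A129-6 and A129-17 and an adjusted p of 0.197 (edgeR).

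The 5p values were also set against the position of the hairpin in the intron. Of the 43 hairpins, 11 have a 5p row of their own, shared with no other hairpin or row. The hairpins of miR-466 and miR-297, which begin at 10466663, were not part of this. Of the 2 families, the 3 hairpins nearest the 5′ end, Mir669f, Mir669e and Mir669b, start at 10467229, 10467495 and 10467790. Their 5p strands differed from R1 by 1.79, 0.35 and 0.40 on the log2 scale. Mir467e (chr2:10505721-10505807) and Mir467d (chr2:10507630-10507714) start 1909 bases apart with 0 hairpins of the 2 families between them, and their 5p strands had differences of -0.88 and 4.05. Within each library, which needs no scaling, the ratio of miR-467d-5p to miR-467e-5p counts was 4.77 and 5.05 (A129-2), 6.76, 6.65 and 8.65 (A129-6), 6.81 and 9.41 (A129-17), and 0.201 and 0.227 (R1). The ratio was above 1 in the 7 haploid libraries and below 1 in both R1 libraries. In an exact two-sided permutation test over the 7 haploid and 2 R1 libraries the p was 0.0556, the smallest this design allows and so above 0.05 for any values, for this ratio and for each of 3 others given below, and over the 4 ratios the Benjamini-Hochberg adjusted p was also 0.0556. These 4 ratios were chosen after the values were seen, so no conclusion is drawn from this p.

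**Figure D3:**
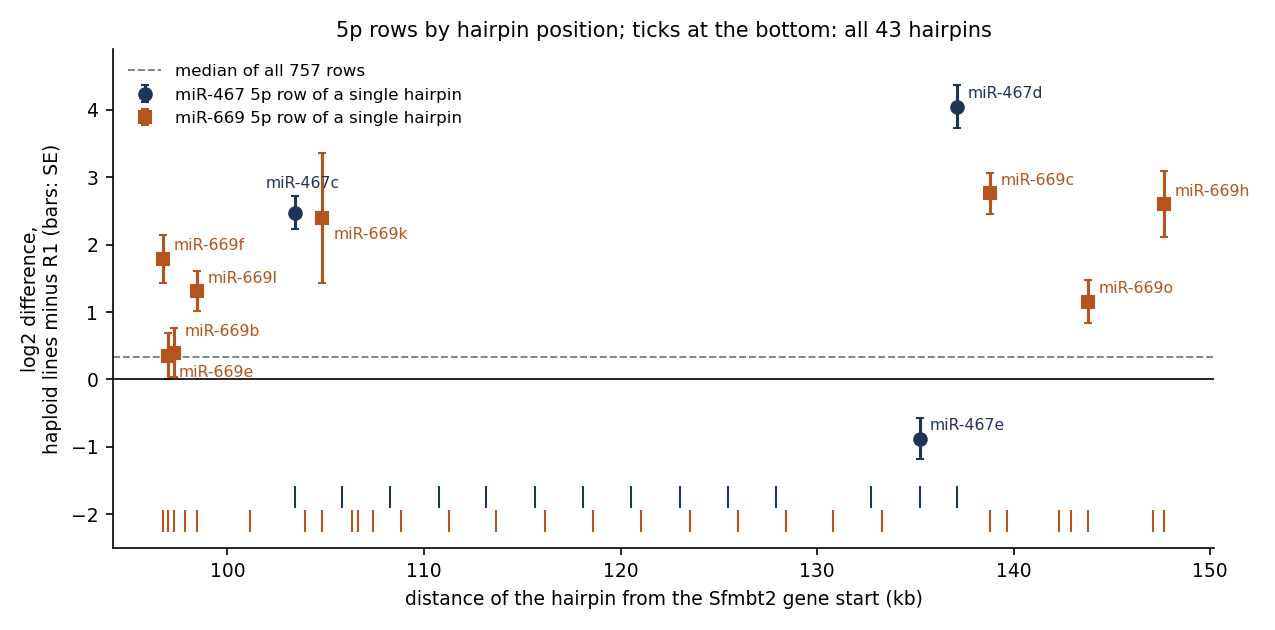
Log2 difference (mean of haploid lines minus R1, bars are SE) of the 11 miR-467 and miR-669 5p rows that belong to 1 hairpin, against the distance of the hairpin from the start of Sfmbt2 in kb, with ticks for all 43 hairpins. miR-467e at -0.88 and miR-467d at 4.05 are next to each other, and the 3 leftmost points are miR-669f at 1.79, miR-669e at 0.35 and miR-669b at 0.40.

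The make-up of the 2 families within a library, which also needs no scaling, was led by miR-467a/b-5p in R1 and spermatids and by miR-467a/b-5p or miR-669c-5p in the haploid ESC, and is given without a test. miR-467a/b-5p was 56.3 and 58.6 (R1) and 69.0, 50.6 and 43.4 (RS) as a percentage of the counts of the 35 profiles, and 19.3 to 26.2% in the 7 haploid libraries. It was the largest member in all 5 R1 and spermatid libraries, with means of 57.4% ± 1.62 (SD, n = 2) and 54.3% ± 13.2 (n = 3). miR-669c-5p was 19.8 to 28.7% in the haploid libraries, 7.04% ± 0.299 in R1 and 10.6% ± 2.69 in spermatids. miR-467c-5p was 9.63 to 20.1%, 4.50% ± 0.0199 and 6.63% ± 3.19 in the same order, and miR-467d-5p 4.25 to 5.49%, 0.543% ± 0.0250 and 1.57% ± 0.955. For these 3 members the lowest haploid library was above the highest R1 and spermatid library. miR-467e-5p had the opposite order, at 0.517 to 0.891% in the haploid libraries, 2.55% ± 0.105 in R1 and 5.14% ± 1.33 in spermatids. The share of miR-669a-5p was 9.72 to 15.0% in the haploid libraries, overlapping R1 at 12.5% ± 0.393, and 6.66% ± 1.92 in spermatids.

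Members were also set against miR-467a/b-5p in the same library. There were 0.425 to 0.886 counts of miR-467c-5p for each count of miR-467a/b-5p in the haploid libraries, 0.0802 and 0.0766 (R1) and 0.0434, 0.157 and 0.207 (RS). For miR-467d-5p the ratio was 0.162 to 0.248 in the haploid libraries, 0.00934 and 0.00958 (R1) and 0.00949, 0.0296 and 0.0590 (RS). For miR-669c-5p it was 0.816 to 1.40 in the haploid libraries, 0.129 and 0.117 (R1) and 0.140, 0.167 and 0.314 (RS). For each of these 3 ratios the haploid libraries were all above every R1 and spermatid library. The haploid and R1 groups gave the exact permutation p of 0.0556 stated above, and libraries of 1 line are not independent lines.

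**Figure D4:**
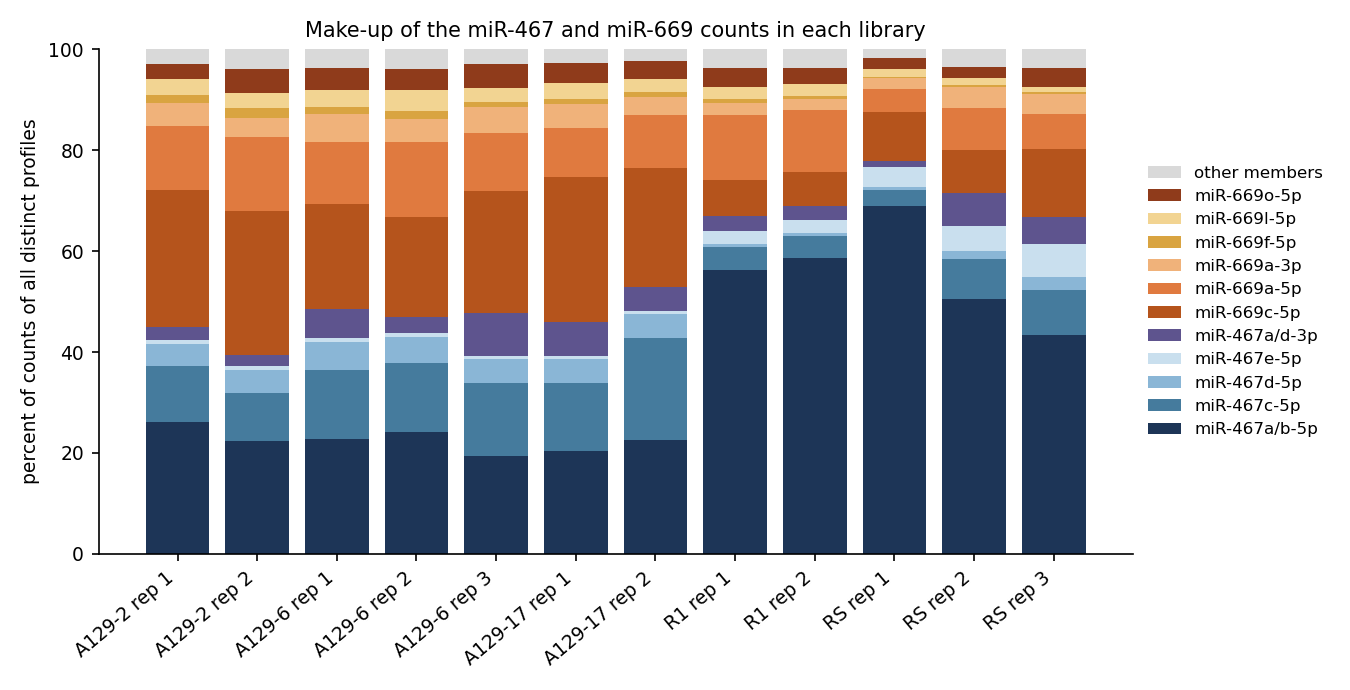
Percent of the counts of the 35 miR-467 and miR-669 profiles held by each of 11 members in every library, stacked, with all other members in grey. miR-467a/b-5p (darkest, bottom) fills 19.3% to 26.2% of the bar in the 7 haploid libraries and 43.4% to 69.0% in the 5 R1 and spermatid libraries, and the miR-669c-5p block is tallest in the haploid libraries.

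The share of the 3p arm in the haploid libraries lay above R1 for miR-669a and below R1 for miR-669f. For miR-669a, the 3p strand was 27.1 and 21.2 (A129-2), 31.3, 22.9 and 30.6 (A129-6), 32.5 and 25.3 (A129-17), and 16.0 and 14.8 (R1) as a percentage of 5p plus 3p counts. All haploid libraries were above R1, and the 3 spermatid libraries, from 68 to 146 counts each, were at 32.2%, 32.9% and 36.8%. The separate row miR-669a-3-3p, with 113 counts over all libraries, was not part of these values. For miR-669f, it was 20.5 and 20.4 (A129-2), 29.8, 20.3 and 30.6 (A129-6), 26.9 and 19.2 (A129-17), and 36.8 and 37.2 (R1). Here all haploid libraries were below R1, and spermatids had 5 or 6 counts each, too few to place. For miR-467a, miR-467b and miR-467d, whose strands share rows, the common 3p profile was 7.38 to 25.9% of the 3 distinct profiles in the haploid libraries and 4.96% and 4.55% in R1. miR-467c was almost wholly 5p, with 0.0363 to 0.365% of 3p in the haploid libraries and 0.693% and 1.51% in R1. Of 11 member hairpin names with both arms in the table and at least 100 counts in every ESC library, the 3p percentage in all haploid libraries was above both R1 libraries in 2 (miR-467a and miR-669a) and below both in 4 (miR-467c, miR-467d, miR-669f and miR-669l). Over all 188 such hairpin names in the table it was above in 32.4% and below in 22.9%. For miR-669l the 3p strand had only 18 counts over all libraries, and its highest haploid share, 0.302%, was close to the 0.3135% of R1 replicate 2. The values of miR-467a, miR-467b and miR-467d rest on shared rows, and these shares were not tested.

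**Figure D5:**
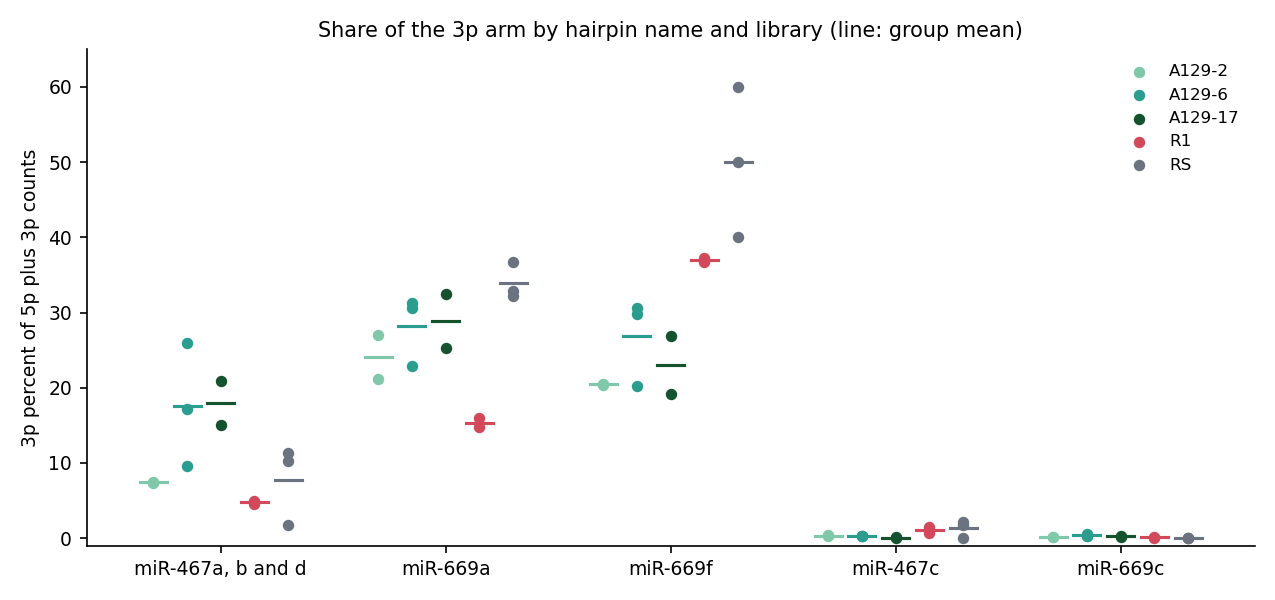
The 3p strand as a percent of 5p plus 3p counts for 5 hairpin names, by library and coloured by group, with a bar at the group mean; miR-467a, b and d are summed because they share rows. The haploid points lie above R1 for miR-669a and below R1 for miR-669f, and miR-467c and miR-669c stay near 0 in every group.

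Against round spermatids, miR-467c-5p, miR-467d-5p and miR-669c-5p were higher in the haploid ESC, and miR-467e-5p was lower. In the fit of all 12 libraries, 17 of 28 tested member rows were called higher than in spermatids and 1 lower, where 44.5% of all 806 tested rows were called higher and 20.8% lower. The median log2 difference of the members, 2.81, stood beside 2.79 over all rows, but 6 of the 28 members and 252 of the 806 rows had 0 counts in 1 of the 2 groups. With those rows at the bound that a floor of 3 counts over the group gives, or at 0 where that bound left no difference, the medians were 2.17 and 0.52. With total-count scaling the median of all rows was 1.29, the calls of all rows were 46.1% higher in place of 68.1%, and 7 member rows were called higher and 4 lower. With upper-quartile scaling 48.6% of the calls of all rows were higher, and the member rows were 10 higher and 4 lower. miR-467d-5p had 14, 17 and 16 counts in the 3 spermatid libraries and a log2 difference of 3.77 (SE 0.372, adjusted p = 5.56e-09, edgeR), which was 2.00 with total-count scaling. miR-669c-5p had 207, 96 and 85 counts and a difference of 3.18 (SE 0.392, adjusted p = 1.79e-07, edgeR), 1.45 with total-count scaling. miR-467c-5p had 64, 90 and 56 counts and a difference of 3.09 (SE 0.340, adjusted p = 3.23e-08, edgeR), 1.30 with total-count scaling. These 3 were called higher in every alternative, as were miR-669a-5p, miR-669b-5p, miR-669f-5p and miR-669l-5p.

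With TMM scaling, and with R1 compared in the ESC fit, miR-467e-5p was the only member called lower in the haploid ESC than in both R1 and spermatids. In the fit of all 12 libraries its difference from R1 was -0.02 (adjusted p = 0.994, edgeR). Total-count and upper-quartile scaling called more member rows lower than spermatids, as given above. miR-467e-5p had 84, 56 and 41 counts in spermatids, or 345, 361 and 246 CPM of total counts. Against spermatids it fell by 0.84 on the log2 scale (SE 0.314, adjusted p = 0.0233, edgeR). The call was lost without A129-2 replicate 1 (-0.59, adjusted p = 0.116, edgeR), without RS replicate 1 (-0.68, adjusted p = 0.106) and without RS replicate 2 (-0.66, adjusted p = 0.104). With total-count scaling the difference was larger, at -2.57, and the lowest adjusted p over the alternatives was 1.17e-07, with upper-quartile scaling (edgeR). miR-467a/b-5p was the most abundant member in spermatids, with 1476, 574 and 271 counts. The spermatid libraries differed among themselves, with 6056, 3698 and 1626 CPM of total counts for miR-467a/b-5p. The 5p strand of miR-669f had 3, 3 and 2 counts there, and that of miR-669b 0, 2 and 4.

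The comparison of R1 with spermatids called 4 members. In the same fit, 3 of 28 member rows were called higher in R1 (miR-669a-5p, miR-669b-5p and miR-669f-5p) and 1 lower (miR-467d-5p). Among all tested rows, 33.6% were higher and 19.4% lower. The median log2 difference was 0.05 over the members and 2.04 over all rows, but 6 of 28 members and 252 of 806 rows had 0 counts in a group. With those rows at their bound both medians were 0.00. That is the value given to a row whose bound left no difference, so these medians do not compare the members with all rows. These 4 were singled out after their values were seen. The counts were not stable. Upper-quartile scaling gave 1 higher and 8 lower, total-count scaling 1 higher and 4 lower, and the share of higher rows among all calls was 49.6% and 53.5% with these scalings against 63.5%. Leaving out 1 library gave 5 higher rows without R1 replicate 1, 7 without RS replicate 3, 10 without RS replicate 2, and 8 without A129-2 replicate 2, A129-6 replicate 1, either A129-17 library or R1 replicate 2. The call of miR-467d-5p was lost without either A129-2 library, A129-6 replicate 1, either A129-17 library, either R1 library, RS replicate 2 or RS replicate 3, and also with RLE scaling, no filter or the 2 ESC libraries of lowest TMM factor left out (adjusted p from 0.0535 to 0.958 over these settings, edgeR). Of the 3 higher rows only miR-669b-5p kept its call in every alternative. miR-669a-5p lost it with upper-quartile (adjusted p = 0.861, edgeR) and total-count scaling (0.631), the filter on a mean count of 50 and the replicate block. miR-669f-5p lost it with upper-quartile (adjusted p = 0.213, edgeR) and total-count scaling (0.173). The comparisons with spermatids share the spermatid libraries with each other, and those with R1 share the R1 libraries.

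The other microRNAs that carry the names of the Sfmbt2 cluster, miR-466 and miR-297, were set beside the members. Of 30 such rows 26 were tested in the ESC fit, 19 were called higher in the haploid lines than in R1 and 1, miR-466n-3p, lower, and the median log2 difference was 1.67. Among all 757 tested rows, 35.3% were called higher and 35.3% lower, with a median of 0.33. Rows alike in their counts were not merged here, and miR-466d-5p and miR-466n-5p both had 974 counts in all and a log2 difference of 2.43. miR-466h-3p, whose hairpin lies in the intron, had a log2 difference of 4.57 (adjusted p = 1.94e-08, edgeR). miR-466i-3p and miR-466i-5p, whose only annotated hairpin of that name is on chromosome 13, had differences of 3.40 (adjusted p = 1.20e-06, edgeR) and 2.46 (adjusted p = 0.000767). miR-466n-3p, miR-466h-3p and the 2 miR-466i rows were picked after their values were seen. The call of miR-466n-3p, from 50 counts in all, was lost without R1 replicate 2, which left 0 rows called lower. A name of the family does not by itself place a row in Sfmbt2, and reads may be shared between near copies.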

How the data were processed

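Small RNA was sequenced from 12 libraries of 5 groups. The deposited values are raw read counts per mature miRNA for all libraries in 1 table of 1549 rows. The submitters' processing notes name Bowtie 0.12.9 and DESeq2, with no role for either. The genome build, the miRBase release and the handling of reads with several matches are not given in the sources used here. Members and gene lists were chosen with earlier results of these data known. Rows were tested with edgeR 4.0.16 in R 4.3.3 (glmQLFit, glmQLFTest, TMM scaling, group means, filterByExpr with a minimum count of 10 and a total of 15), with Benjamini-Hochberg adjustment over all tested rows. The 9 ESC libraries formed one fit, of 757 rows, and all 12 a second, of 806 rows, for comparisons with spermatids. The mean of 3 lines was set against R1 or RS. The script was tested on simulated counts. Members named in the text were, per family and arm, the 3 of highest mean level, the 5 largest called differences from R1 in each direction among those with at least 10 CPM in a group and the same sign in the 3 lines, the 3 with the smallest p between lines, the 3 most abundant in RS, and the other arm of each. Others are named where a count or a feature was small enough to list. Alternatives were RLE, upper-quartile and total-count scaling, DESeq2 1.42.0, no filter, a filter of a mean count of 50, identical rows collapsed, a replicate block, each library left out, counts summed per line, and, added after the data were seen, the 2 ESC libraries of lowest TMM factor left out together. The pooled bound uses a floor of 3 counts and covers counting error only.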

Additional observations from a re-analysis of the deposited data

How the results depend on the processing

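Alternatives are listed in the processing summary. The count of member rows higher in the haploid lines than in R1, 15, lay within 1.5 times of that in all of them, at 11 to 16 with 1 library left out. The 1 row lower was 3 with RLE scaling, DESeq2 or the 2 ESC libraries of lowest TMM factor left out, 0 with upper-quartile scaling, the stricter filter, all 12 libraries in the fit or counts summed per line, and 0 to 3 with 1 library left out. For A129-2, 13 higher became 21 in the 12-library fit and 8 to 14 with 1 library left out, and 0 lower became 1 with DESeq2 or the 2 libraries left out. For A129-6, 0 lower became 3 with RLE, 1 with DESeq2 and 0 to 1 with 1 library left out. For A129-17, 13 higher was 8 to 14 with 1 library left out, and 3 lower became 1 with upper-quartile scaling, no filter or the stricter filter, 0 in the 12-library fit and 0 to 3 with 1 library left out. Between lines, 0 became 3 with DESeq2, no filter or the 2 libraries left out, 1 with the replicate block and 0 to 2 with 1 library left out. Against spermatids, 17 higher became 10 with upper-quartile and 7 with total-count scaling, and 1 lower became 4 with either and 0 to 1 with 1 library left out. For R1 against spermatids, 3 higher became 1 with upper-quartile or total-count scaling, 8 with no filter or the 2 libraries left out and 3 to 10 with 1 library left out, and 1 lower became 0 with RLE, no filter or the 2 libraries left out, 8 with upper-quartile scaling, 4 with total-count scaling, 6 with the stricter filter and 0 to 1 with 1 library left out. The 1 lower row of miR-466 and miR-297 became 0 with the stricter filter and 0 to 1 with 1 library left out. The difference of miR-467a/b-5p from R1 reversed to 0.42 in the 12-library fit. The cause of these changes was not tested.

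For libraries that share a replicate number, deviations from the group means had r from -0.405 to 0.203 over 21 pairs, 3 of them over 0.1. In a group of 2 libraries the deviations mirror each other, so these pairs are not separate checks. Whether the numbers pair the samples cannot be told from them. With the replicate block 1 row differed between lines, miR-669e-5p (adjusted p = 0.022, edgeR). Of the named members, miR-669f-3p gained a call against R1 (0.0487), miR-669k-5p lost one (0.0525) and miR-669a-5p lost its call between R1 and spermatids (0.0615). A GC correction and its combination with the replicate block were not run, because 0 of 28 tested members had a sequence. Summing every row instead of distinct profiles moved the share of miR-467 5p in R1 from 0.274% to 0.517% of counts. At 4.1 to 6.44 CPM per count, spermatid levels of the rarer members were not resolved.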
